A study of Mus musculus with 40 samples.

Results

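The genes described here encode matricellular and other secreted matrix proteins: Sparc, the fibulins Fbln1, Fbln2 and Efemp1, Spon2, Tgfbi, Postn, Fn1, Thbs1 and Tnc. They are 10 of the 53465 gene identifiers in the count table and were chosen by name with earlier results of these RNA libraries known. Spon2 in particular was known as a gene with a large rise under MI-503. Their levels and fold changes are therefore a description, and no p-value is given for them. The series studied urothelial cells of the mouse bladder, grown as organoids, which are small epithelial cultures. RNA was sequenced from 4 groups of 2 libraries. The first group was labelled as a double knockout (dKO) of Kmt2c and Kmt2d and was given MI-503, and the second was dKO cells given the solvent DMSO. The third was wild-type (WT) cells given MI-503, and the last was WT cells given DMSO. Treatment lasted 4 days with MI-503 at 1 µM. Kmt2c and Kmt2d encode histone H3K4 methyltransferases of enhancers, and MI-503 inhibits menin by blocking its contact with the methyltransferase KMT2A. Every group was grown in the same medium, which held Noggin and R-spondin, EGF, the ROCK inhibitor Y-27632 and A83-01, an inhibitor of the TGF-beta type I receptor. How the knockout was made, and whether the 2 libraries of a group came from separate cultures or animals, is not stated in the labels. P-values therefore measure only the spread between these libraries.

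Matricellular proteins are secreted into the matrix but are not its main building blocks. They bind collagens, growth factors and integrins, and so tune how firmly cells attach, spread and signal. In the bladder most matrix is made by stromal cells beneath the urothelium, while epithelial cells secrete matrix proteins mainly at their basement membrane and during repair. Several of the genes, among them Tgfbi, Fn1, Postn and Tnc, are known to respond to TGF-beta, whose type I receptor was inhibited in all 4 groups.

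Library totals ran from 58113705 to 68571176 counts, and a library with no count of a gene may still have held up to 3, which is 0.0421 to 0.0501 CPM (library counts scaled to a common total). Kmt2c RNA averaged 28.2 ± 2.24, 53.8 ± 2.08, 61.0 ± 0.980 and 110.5 ± 0.476 CPM in dKO MI-503, dKO DMSO, WT MI-503 and WT DMSO (SD, n = 2 each). Kmt2d RNA was not lower in dKO but higher, at 122 ± 15.7 CPM in dKO DMSO and 91.0 ± 6.26 CPM in WT DMSO, so dKO below stands for the libraries labelled dKO. Counts cover a whole gene and do not show the loss of single exons. Men1, which encodes menin, averaged 30.8 ± 1.66 CPM in dKO DMSO and 15.7 ± 1.76 CPM in WT DMSO. The WT DMSO libraries stood apart in the ER chaperone gene Hspa5, at 14102 and 15236 CPM, against 342 to 1511 CPM in the other 6 libraries. Both libraries of that group did so, and comparisons that use it cannot be repeated without it.

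Markers of epithelial cells were abundant in every library. The 13 urothelial and epithelial markers summed to 18574 to 20819 CPM in dKO MI-503, 18248 to 20264 in dKO DMSO, 15536 to 16311 in WT MI-503 and 9163 to 9985 in WT DMSO. Krt5 and Krt14, markers of basal cells, and the keratin gene Krt7 carried much of this. Krt7 averaged 2884, 2065, 4989 and 1311 CPM in dKO MI-503, dKO DMSO, WT MI-503 and WT DMSO. Trp63, another basal marker, averaged 565, 1005, 235 and 456 CPM in this order. Among uroplakin genes, markers of umbrella cells, Upk2 was at or below 0.140 CPM in every group mean, Upk1a at or below 1.75 and Upk3a at or below 2.50. Upk1b was higher, at 101, 140, 102 and 138 CPM in the same order of groups. Of 11 fibroblast markers, Col1a2, Dcn, Lum, Thy1 and Dpt had no count in any of the 8 libraries. The fibroblast sum was 34.1 to 36.3, 33.6 to 39.9, 14.9 to 15.4 and 17.3 to 17.6 CPM in dKO MI-503, dKO DMSO, WT MI-503 and WT DMSO, mostly from Twist2. Pdgfra, a receptor gene of fibroblasts, averaged 7.84, 3.70, 1.35 and 1.08 CPM in these groups. Of the other markers with counts, Pdgfrb reached 0.361 CPM, Col1a1 0.262 and Col3a1 0.0371 in the highest group mean, and Fap had 1 count in all. The fibroblast sum was thus higher in dKO than in WT, and its part in the genotype differences of the genes was not tested. The 7 endothelial markers summed to at most 0.468 CPM in any library.

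**Figure D1:**
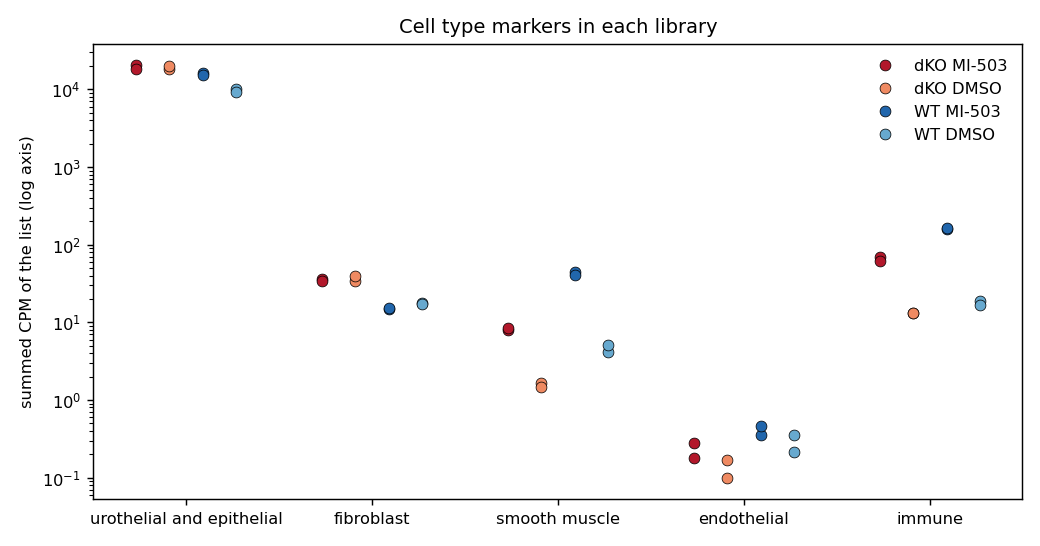
Summed CPM of 5 fixed lists of cell type markers in each library (log axis); each point is 1 library. The epithelial sum lies between 9163 and 20819 CPM, while the endothelial sum lies at or below 0.468 CPM.

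Of the 10 genes, 9 passed the filter on low counts, and Postn, which encodes the collagen-binding protein periostin, had 0 counts in all 8 libraries. Calls come from the edgeR quasi-likelihood test, with Benjamini-Hochberg adjustment across the 16921 genes that entered it and a threshold of 0.05. In dKO against WT in DMSO, 3 of the 9 genes were higher, 5 were lower and 1 did not pass, and their median log2 fold change was -1.39, against -0.05 over all genes tested. Of the 5, Spon2 had 5 to 27 counts in the libraries compared. In that comparison 29.6% of all genes were called higher and 35.8% lower. In dKO against WT in MI-503, 3 were higher and 6 lower, with a median of -2.63 against 0.0071 over all genes, of which 26.6% were called higher and 28.5% lower. MI-503 against DMSO gave 7 higher and 2 lower genes in dKO and also in WT. The median was 0.97 in dKO, where 29.1% of all genes were called higher and 26.5% lower, and 0.77 in WT, where the shares were 35.2% and 33.7%. The median over all genes tested was 0.031 in both genotypes. The MI-503 effect in dKO minus that in WT passed the test for 8 of the 9 genes, 3 of them higher and 5 lower. Over all genes 24.8% were called higher and 22% lower in that difference. Within each of the 4 comparisons between groups, the CPM of the libraries did not overlap for any of the 9 genes, which was the case for most genes. Of all genes tested, 81.1% did not overlap in dKO against WT in DMSO and 77.1% in dKO against WT in MI-503. The shares were 75.1% for MI-503 against DMSO in dKO and 83.4% in WT. Since the genes were chosen with results known, nothing is read from these counts against the shares over all genes.

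**Figure D2:**
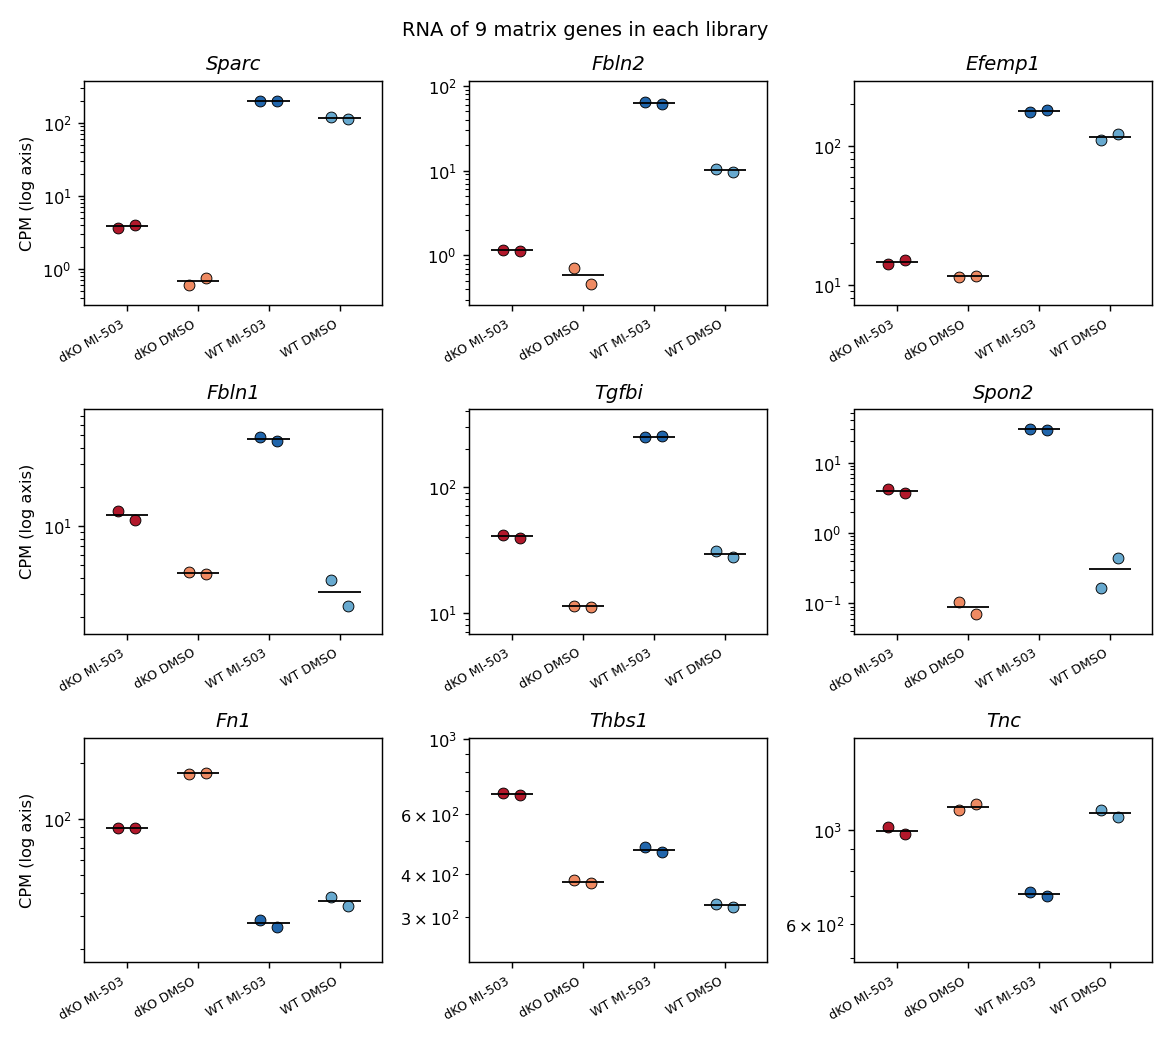
CPM (log axis, its range differing between panels) of the 9 genes with counts, in each library; points are libraries and bars are group means. Sparc, Fbln2 and Efemp1 lie far lower in dKO libraries, while Fn1 lies higher there. Spon2, Tgfbi and Fbln1 are highest in WT MI-503, at 30.04, 251 and 48.4 CPM in the highest library.

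Sparc encodes a calcium- and collagen-binding glycoprotein that takes part in collagen assembly. It lies on chromosome 11 at 55394159 to 55420080 (GRCm38.p6). Its RNA was far lower in dKO cells than in WT cells. It measured 3.61 and 4.04 CPM in dKO MI-503, 0.591 and 0.757 in dKO DMSO, 199.7 and 199 in WT MI-503 and 122 and 111 in WT DMSO. The highest dKO library was thus far below the lowest WT library. In DMSO the RNA was 172-fold lower in dKO than in WT (log2 fold change -7.42, SE 0.10), the largest change of the 9 genes in that comparison. MI-503 raised it in both genotypes, 5.62-fold in dKO (2.49, SE 0.14) and 1.71-fold in WT (0.77, SE 0.06). The rise was larger in dKO by 1.72 on the log2 scale (SE 0.15). Sparc was still 52.2-fold lower in dKO than in WT under MI-503 (-5.71, SE 0.08). In bulk RNA, fewer cells that express a gene and less RNA per cell cannot be told apart.

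The fibulins are glycoproteins of elastic fibres and basement membranes. Fbln2, which encodes fibulin-2 (chromosome 6, 91212460 to 91272540), measured 1.17 and 1.12 CPM in dKO MI-503, 0.713 and 0.463 in dKO DMSO, 63.5 and 61.1 in WT MI-503 and 10.5 and 9.62 in WT DMSO. Every dKO library was below every WT library. In DMSO it was 17.2-fold lower in dKO (-4.10, SE 0.14), and under MI-503 54.2-fold lower (-5.76, SE 0.11). The drug raised it 1.96-fold in dKO (0.97, SE 0.19) and 6.19-fold in WT (2.63, SE 0.09). The wider gap under MI-503 came with a rise that was smaller in dKO by 1.66 on the log2 scale (-1.66, SE 0.22).

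Efemp1, which encodes fibulin-3 (chromosome 11, 28853154 to 28926743), followed the same order of groups as Sparc and Fbln2. It measured 14.1 and 15.0 CPM in dKO MI-503, 11.4 and 11.5 in dKO DMSO, 176 and 182 in WT MI-503 and 110.2 and 121 in WT DMSO. It was 10.1-fold lower in dKO in DMSO (-3.34, SE 0.06) and 12.3-fold lower in dKO under MI-503 (-3.62, SE 0.06). MI-503 moved it much less than genotype did, by 1.27-fold in dKO (0.35, SE 0.07) and by 1.55-fold in WT (0.63, SE 0.06). The effects differed by -0.28 (SE 0.09), a call that was lost without dKO MI-503 replicate 1 (-0.24), WT MI-503 replicate 2 (-0.25) or WT DMSO replicate 1 (-0.22).

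Fbln1 encodes fibulin-1, which binds fibronectin and basement membrane laminins (chromosome 15, 85205949 to 85286294). Unlike the other two fibulin genes, it was not lower in dKO in DMSO. It measured 13.2 and 11.1 CPM in dKO MI-503, 4.43 and 4.28 in dKO DMSO, 48.4 and 45.4 in WT MI-503 and 3.83 and 2.41 in WT DMSO. The order of groups was WT MI-503, dKO MI-503, dKO DMSO and WT DMSO, from high to low. MI-503 raised it 2.78-fold in dKO (1.48, SE 0.14) and 15.0-fold in WT (3.91, SE 0.15), and the effects differed by -2.43 (SE 0.21). In DMSO it was 1.39-fold higher in dKO (0.48, SE 0.17), whereas under MI-503 it was 3.87-fold lower in dKO (-1.95, SE 0.12). The call in DMSO was lost with DESeq2 (0.52), without dKO DMSO replicate 1 (0.45) and without WT DMSO replicate 2, where the log2 fold change was 0.18.

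Spon2 encodes spondin-2, also called mindin, a secreted protein that binds integrins and bacterial surfaces in innate immunity (chromosome 5, 33213518 to 33218254). Its RNA was close to the detection limit in DMSO and clearly present under MI-503. It had 286 and 231 counts in dKO MI-503, 7 and 5 in dKO DMSO, 2054 and 1750 in WT MI-503 and 10 and 27 in WT DMSO. These were 4.24 and 3.74, 0.106 and 0.0701, 30.04 and 29.2, and 0.163 and 0.446 CPM in the same order of groups. The lowest library with MI-503 was far above the highest without it. The drug raised Spon2 44.8-fold in dKO (5.49, SE 0.29) and 97.0-fold in WT (6.60, SE 0.19). The size in WT rested on which DMSO library was used, with a log2 fold change of 6.05 without WT DMSO replicate 1 and 7.49 without replicate 2. The difference of the effects, -1.12 (SE 0.61), did not pass the test. It was -0.56 without WT DMSO replicate 1, and -2.003, past the threshold, without replicate 2. In DMSO the RNA was 3.42-fold lower in dKO (-1.77, SE 0.50), a call that rested on few counts. The gene passed the filter on low counts through the MI-503 groups, where it is high, and would not have passed it in the DMSO groups alone. The call was lost without dKO DMSO replicate 2 (-1.497) or WT DMSO replicate 2 (-0.89), and the value was -2.33 without WT DMSO replicate 1. Under MI-503 it was 7.41-fold lower in dKO (-2.89, SE 0.13).

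Tgfbi and Postn encode relatives with fasciclin domains, which bind collagens and integrins. Tgfbi, named for its induction by TGF-beta (chromosome 13, 56609586 to 56639359), measured 41.6 and 39.1 CPM in dKO MI-503, 11.4 and 11.2 in dKO DMSO, 248 and 251 in WT MI-503 and 30.9 and 28.0 in WT DMSO. Both groups with MI-503 lay above both groups without it. MI-503 raised the RNA 3.58-fold in dKO (1.84, SE 0.06) and 8.46-fold in WT (3.08, SE 0.06), a difference of -1.24 (SE 0.09). It was 2.62-fold lower in dKO in DMSO (-1.39, SE 0.06) and 6.18-fold lower in dKO under MI-503 (-2.63, SE 0.06). Postn (chromosome 3, 54359267 to 54391041) was at 0 in each of the 8 libraries, so its level was at most 0.0421 to 0.0501 CPM at these depths.

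Fn1 encodes fibronectin, the integrin ligand on which many cells assemble their provisional matrix (chromosome 1, 71585473 to 71653280). It ran opposite to Sparc in both factors, with more RNA in dKO and less under MI-503. Each dKO MI-503 library measured 89.7 CPM, against 174 and 176 in dKO DMSO, 28.7 and 26.1 in WT MI-503 and 38.0 and 33.8 in WT DMSO. The lowest dKO library was above the highest WT library. In DMSO Fn1 was 4.88-fold higher in dKO (2.29, SE 0.06), and under MI-503 3.27-fold higher (1.71, SE 0.06). The drug lowered it 1.95-fold in dKO (-0.97, SE 0.06) and 1.31-fold in WT (-0.39, SE 0.06), and the effects differed by -0.58 (SE 0.09).

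Thbs1 and Tnc encode large anti-adhesive glycoproteins that are made in wounds and remodelled tissue. Thbs1, whose product thrombospondin-1 also activates latent TGF-beta (chromosome 2, 118111876 to 118127133), measured 691 and 682 CPM in dKO MI-503, 383 and 376 in dKO DMSO, 480.2 and 464 in WT MI-503 and 327 and 320.4 in WT DMSO. Its changes were small but larger than the spread of the replicates. MI-503 raised it 1.81-fold in dKO (0.85, SE 0.04) and 1.46-fold in WT (0.54, SE 0.04). The rise was larger in dKO by 0.31 (SE 0.06), a call that was lost when libraries were scaled by size only (0.15). Thbs1 was 1.17-fold higher in dKO in DMSO (0.23, SE 0.04) and 1.45-fold higher in dKO under MI-503 (0.54, SE 0.04). Over the alternative ways of processing, the log2 fold change in DMSO ran from 0.21 to 0.46.

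Tnc encodes tenascin-C, which loosens the grip of cells on fibronectin (chromosome 4, 63959785 to 64047015). It measured 1014 and 981 CPM in dKO MI-503, 1116 and 1149 in dKO DMSO, 714 and 699.6 in WT MI-503 and 1113 and 1075 in WT DMSO. The WT MI-503 libraries were the lowest, and the groups in DMSO lay side by side. Tnc did not pass the test between dKO and WT in DMSO (0.05, SE 0.05). It did pass, as higher in dKO, when libraries were scaled by size only (0.28), with no filter on low counts (0.14) and with a stricter filter (0.14). MI-503 lowered it 1.14-fold in dKO (-0.18, SE 0.05) and 1.55-fold in WT (-0.63, SE 0.05), a difference of 0.45 (SE 0.06). Under MI-503 it was 1.41-fold higher in dKO (0.50, SE 0.05). Counts of Tnc made up 35.8 to 66.4% of the counts of the 10 genes, which together held 0.152 to 0.201% of all counts. The 3 other genes whose log2 CPM was most like that of Tnc were Ddx39, Nfkb2 and Zbtb10, with Pearson r of 0.995, 0.995 and 0.994 over the 8 libraries. These libraries fall into 4 groups, so such values describe the order of groups more than the libraries themselves.

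**Figure D3:**
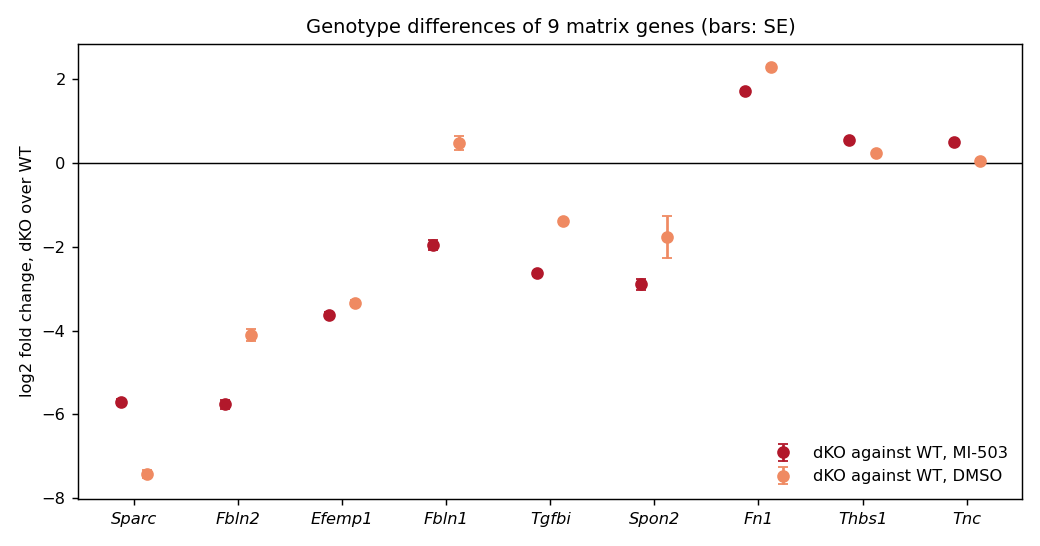
Log2 fold change of dKO over WT for the 9 genes (vertical axis), under MI-503 and in DMSO; points are fitted values and bars are SE. Sparc, Fbln2 and Efemp1 lie lowest, at -5.71, -5.76 and -3.62 under MI-503, and Fn1 lies highest, at 1.71 under MI-503 and 2.29 in DMSO. Fbln1 lies above 0 in DMSO (0.48) and below it under MI-503 (-1.95).

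Set side by side, the MI-503 effects had the same sign in dKO as in WT for each of the 9 genes, and their sizes differed. The comparisons in dKO and in WT use separate libraries. Sparc and Thbs1 rose more in dKO, while Fbln1, Fbln2, Tgfbi and Efemp1 rose less in dKO. Fn1 fell more in dKO and Tnc fell less. Markers moved with the drug as well. Acta2, the smooth muscle actin gene, averaged 7.14, 0.988, 40.8 and 3.20 CPM in dKO MI-503, dKO DMSO, WT MI-503 and WT DMSO. It carried most of the smooth muscle sum of 8 markers, which was 8.07 to 8.36, 1.46 to 1.64, 41.1 to 43.8 and 4.18 to 5.13 CPM in these groups. The other 7 were low, Myh11 at 0.237 to 0.328 CPM and Cnn1 at no more than 0.0162 CPM as group means. The sum of 7 immune markers was 61.2 to 69.9, 13.1 to 13.2, 161 to 166 and 16.5 to 18.7 CPM, nearly all of it from Cd68, which encodes a lysosomal protein. Adgre1 was at 0 in all 8 libraries and Ptprc, the pan-leukocyte marker, was at or below 0.0146 CPM in each group mean. The part of Acta2 and Cd68 in the changes of the 9 genes was not tested.

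**Figure D4:**
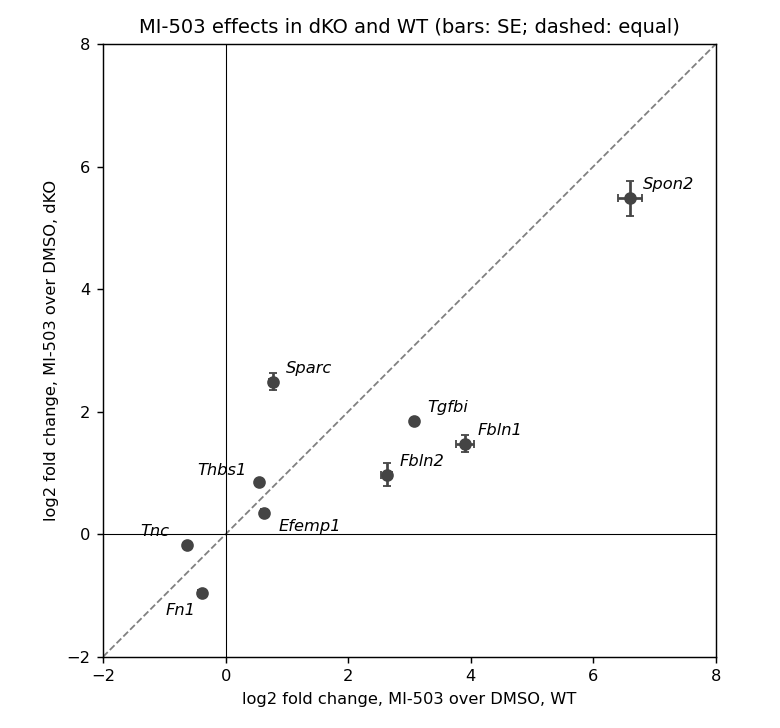
Log2 fold change of MI-503 over DMSO for the 9 genes, in dKO (vertical axis) and in WT (horizontal axis); bars are SE and the dashed line marks equal effects. No gene has effects of opposite sign. Sparc lies above the line (2.49 in dKO, 0.77 in WT), and Fbln1 lies below it (1.48 in dKO, 3.91 in WT).

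Promoter sequences are shown for 3 genes that rose under MI-503 and for Tnc, which fell. Each of these genes has a RefSeq start that coincides with the annotated start of its gene. Postn, which had no counts, has such a start as well and is not shown. Each sequence is the 120 bases before the start from RefSeq on GRCm38.p6, written 5′ to 3′, with CpG dinucleotides in capitals.
Sparc upstream of the start, chr11:55420081-55420200, - strand: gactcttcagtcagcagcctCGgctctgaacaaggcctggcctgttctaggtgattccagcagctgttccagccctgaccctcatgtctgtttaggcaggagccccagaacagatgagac
Tgfbi upstream of the start, chr13:56609466-56609585, + strand: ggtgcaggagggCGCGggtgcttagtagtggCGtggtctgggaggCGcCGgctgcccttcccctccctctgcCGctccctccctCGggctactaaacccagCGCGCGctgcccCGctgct
Fbln1 upstream of the start, chr15:85205829-85205948, + strand: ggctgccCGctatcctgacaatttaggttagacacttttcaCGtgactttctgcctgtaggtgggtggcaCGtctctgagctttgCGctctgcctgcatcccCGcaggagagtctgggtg
Tnc upstream of the start, chr4:64047016-64047135, - strand: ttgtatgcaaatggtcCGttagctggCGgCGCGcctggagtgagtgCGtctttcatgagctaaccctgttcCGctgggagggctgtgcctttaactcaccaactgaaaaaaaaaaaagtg
The runs shown hold 1 CpG for Sparc, 11 for Tgfbi, 5 for Fbln1 and 6 for Tnc. In the full 250 bases before these starts there were 4, 15, 7 and 8, against a median of 6 over 32851 such windows of mouse genes. Of the 10 genes, 7 matched the table, with 10 windows, and Spon2, Fn1 and Thbs1 did not. Motifs were searched on both strands of the 250 bases. The AP-1 motif TGANTCA was found in the Efemp1 window alone, at position -154 from its start, and 6.75% of all windows held it. The TEAD motif GGAATG, held by 12.6% of all windows, and CCAAT, held by 33.8%, were found in none of the 10 windows. The GC box GGGCGG, held by 32.7% of all windows, was found in windows of Tnc, Fbln2, Efemp1, Tgfbi and Fbln1. For Fbln1 it lay only in the window of another start, at 85206008, and not in the 250 bases before the start shown. TATAAA, held by 12.4%, was found in windows of Tnc and Postn. For Postn it lay only in the window of the start at 54361107, which is not the annotated start of the gene. A match describes these letters and shows no binding.

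Other matrix genes were described from 5 lists, each as a count beside the shares over all genes given above, with values for the 4 most abundant genes of a list. The lists were also chosen with earlier results of these data known. Their counts and p-values are thus a description of these libraries, and nothing is read from the counts against those shares. Of 31 further matricellular genes, 17 were tested. Relative to WT, dKO cells in DMSO had 5 higher, 8 lower and 4 not passed (median log2 fold change -0.64, mean 0.23). MI-503 gave 7 higher and 2 lower in dKO (median 0.50), and 8 higher and 3 lower in WT (median 0.59). Ccn2, which encodes connective tissue growth factor, averaged 147 ± 3.59 CPM in dKO MI-503, 23.6 ± 0.482 in dKO DMSO, 305 ± 5.59 in WT MI-503 and 36.8 ± 0.987 in WT DMSO. It rose under MI-503 in dKO (2.64, adjusted p = 3.78e-13) and in WT (3.05, adjusted p = 1.79e-14). Igfbp7, whose product binds insulin-like growth factors, averaged 34.3 ± 1.22 CPM in dKO DMSO and 175 ± 0.447 CPM in WT DMSO (-2.36, adjusted p = 1.59e-13). Thbs2, a relative of Thbs1, was higher in dKO in DMSO (0.76, adjusted p = 1.26e-07) and fell under MI-503 in dKO (-0.66, adjusted p = 9.12e-07) and in WT (-0.89, adjusted p = 2.38e-08). Mfge8, whose product bridges integrins and apoptotic cells, was lower in dKO in DMSO (-0.59, adjusted p = 2.27e-06) and rose under MI-503 in dKO (0.84, adjusted p = 1.25e-07) and in WT (0.59, adjusted p = 1.76e-06).

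Of 34 glycoproteins of basement membranes and fibrils, 20 were tested. MI-503 gave 13 higher and 1 lower in dKO (median 1.04), and 13 higher and 1 lower in WT (median 0.76). In dKO the higher calls of Agrn, Bgn and Nid2 lay near the threshold (adjusted p = 0.0383, 0.0450 and 0.0482). The 14 calls in dKO became 12 with the replicate block. The filter on low counts used all 4 groups together. Nid2 and Fbn2 therefore counted as tested in WT, with a log2 fold change of 0 under MI-503. The same held in dKO for Stab2 of the matricellular list and Loxl1 of the cross-linker list below. These genes also entered the counts of dKO against WT in DMSO. Nid2 (6.84) and Fbn2 (6.91) were called higher there, and Stab2 (-5.13) and Loxl1 (-7.30) lower. In dKO against WT in DMSO, 7 were higher and 7 lower (median 0.064), a split that became 10 and 5 with library size only. Ecm1, which encodes extracellular matrix protein 1, averaged 594 ± 37.0 CPM in dKO MI-503, 416 ± 39.6 in dKO DMSO, 1016 ± 26.1 in WT MI-503 and 662 ± 46.4 in WT DMSO. It rose under MI-503 in dKO (0.51, adjusted p = 2.28e-05) and in WT (0.62, adjusted p = 1.93e-06). Ltbp1, whose product stores latent TGF-beta in the matrix, fell in dKO (-0.79, adjusted p = 4.51e-09) and in WT (-0.88, adjusted p = 4.93e-10). Its relative Ltbp4 was higher in dKO in DMSO, at 168 ± 35.3 CPM in dKO and 29.7 ± 4.52 CPM in WT (2.50, adjusted p = 5.03e-09). Agrn, which encodes the proteoglycan agrin, was higher in dKO in DMSO as well (0.55, adjusted p = 1.94e-05).

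Receptors for matrix proteins split both ways. Of 20 tested among 25 listed, 9 were higher and 8 lower in dKO in DMSO (median -0.15, mean 0.20), with a median of 0.08 when scaled by library size only. MI-503 gave 7 higher and 6 lower in dKO (median -0.020, mean 0.15) and 12 higher and 7 lower in WT (median 0.26). The 4 most abundant were all higher in dKO in DMSO. Itga3, an integrin chain of laminin receptors, averaged 1732 ± 147 CPM in dKO DMSO and 833 ± 71.5 CPM in WT DMSO (1.06, adjusted p = 2.04e-08). Sdc1, which encodes the proteoglycan syndecan-1, averaged 1739 ± 90.6 CPM in dKO DMSO and 841 ± 58.4 CPM in WT DMSO (1.05, adjusted p = 2.36e-09). Itgb1, the integrin beta chain that pairs with many alpha chains, changed by 0.55 (adjusted p = 3.64e-07), and Cd44, the hyaluronan receptor gene, by 0.69 (adjusted p = 2.38e-08). Between dKO and WT under MI-503 the differences were smaller, at 0.24 for Itga3, 0.26 for Sdc1 and 0.18 for Cd44. Itgb1 did not pass there (0.093, adjusted p = 0.14).

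Among matrix cross-linkers, proteases and their inhibitors, 25 of 36 were tested. Between dKO and WT in DMSO 5 were higher and 16 lower (median -0.57). MI-503 gave 18 higher and 3 lower in dKO (median 0.68) and 14 higher and 6 lower in WT (median 0.97). Serpine2, a protease inhibitor gene, averaged 357 ± 10.3 CPM in dKO MI-503, 189 ± 5.06 in dKO DMSO, 64.3 ± 2.38 in WT MI-503 and 43.3 ± 1.28 in WT DMSO, and was higher in dKO in DMSO (2.13, adjusted p = 5.06e-13). Timp2, which encodes an inhibitor of metalloproteases, averaged 136 ± 0.596 CPM in dKO MI-503, 85.0 ± 0.931 in dKO DMSO, 309.6 ± 8.29 in WT MI-503 and 136 ± 1.74 in WT DMSO. It rose under MI-503 in dKO (0.68, adjusted p = 1.92e-08) and in WT (1.18, adjusted p = 2.39e-11). Htra1, a serine protease gene, was lower in dKO in DMSO (-1.32, adjusted p = 1.61e-11), and Mmp14, a membrane metalloprotease gene, was higher there (0.44, adjusted p = 3.38e-06).

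All 20 genes listed for TGF-beta ligands, receptors and SMADs were tested. Between dKO and WT in DMSO 5 were higher and 12 lower (median -0.55). MI-503 gave 8 higher and 8 lower in dKO (median -0.090, mean 0.25) and 8 higher and 11 lower in WT (median -0.37, mean 0.094). Tgfbr2, which encodes the type II receptor, averaged 380.2 ± 10.1 CPM in dKO DMSO and 247 ± 1.403 CPM in WT DMSO (0.62, adjusted p = 2.56e-08). Smurf1, a ubiquitin ligase gene of the pathway, was lower in dKO in DMSO (-0.68, adjusted p = 4.16e-08). Tgif1, a repressor of SMAD signalling, fell under MI-503 in dKO (-0.68, adjusted p = 7.64e-08) and in WT (-0.65, adjusted p = 4.30e-08). Smad4, the shared SMAD, fell in dKO (-0.44, adjusted p = 1.48e-06) and in WT (-0.34, adjusted p = 9.75e-06).

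**Figure D5:**
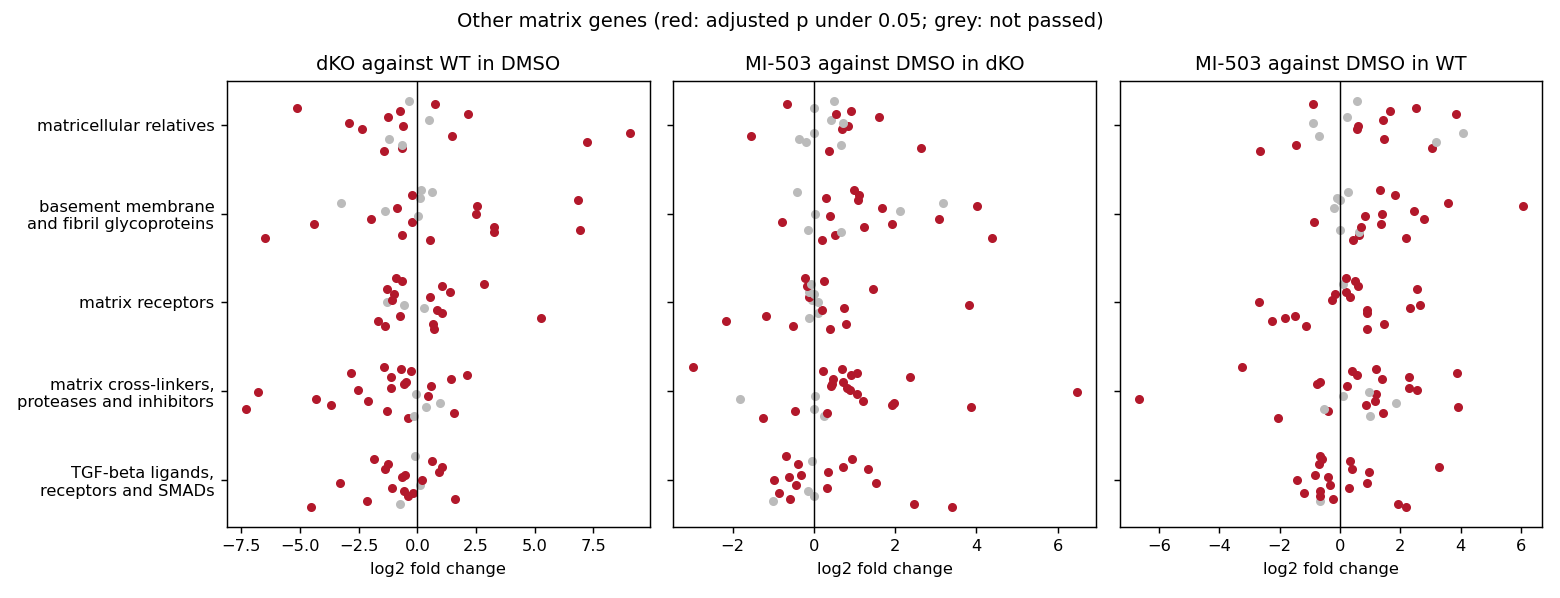
Log2 fold change (horizontal axes) of each tested gene of the 5 lists, for dKO against WT in DMSO and MI-503 against DMSO in dKO and in WT; red points passed the test and grey ones did not. Among basement membrane and fibril genes, 13 red points lie right of 0 and 1 left of it in each MI-503 panel.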

How the data were processed

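PolyA RNA from 8 libraries in 4 groups of 2, grouped by the genotype and treatment in their labels, was analysed; the other 32 of 40 samples were not analysed here. The authors deposited raw read counts, with no normalization, for each Ensembl gene. Per the submitters' processing notes, STAR and the build GRCm38 were among the tools and builds of the series; the sources used here give no counting program, strand setting or gene lengths. Values of overlapping or antisense genes are thus uncertain, and changes are compared within a gene. Sums, shares and ranks over several genes, such as the share of Tnc and the most abundant genes of a list, were not corrected for gene length. Of 53465 genes, 53274 had a symbol in the name table; 1 row without an identifier was left out. The edgeR 4.0.16 filter filterByExpr (minimum count 10, total 15) kept 16921 genes. A quasi-likelihood model with TMM scaling and 1 mean per group used all 8 libraries together (R 4.3.3, 4 residual degrees of freedom, biological coefficient of variation 5.14%). Two-sided p-values from its F test were adjusted by Benjamini-Hochberg across the table. The SE divides the absolute log2 fold change by the root of F, and the prior count was 0.125. Floors cover counting error only. With 2 libraries on each side, the smallest p an exact permutation test allows is 0.33. The code was tested on simulated data. DESeq2 1.42.0, other scalings and filters, the groups compared alone, each library left out and a replicate block were alternatives. The genes and lists were chosen with earlier results of these data known. The rule named all 10 genes, the 4 tested genes of each list with the highest mean CPM, Kmt2c, Kmt2d and Men1, and the 3 genes most like Tnc; marker genes and Hspa5 were named after their values were seen.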

Additional observations from a re-analysis of the deposited data

Results flagged for a closer look

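The MI-503 effect differed between dKO and WT, by the edgeR test of the difference itself, for the genes below, given as the log2 effect in dKO minus that in WT. For the genes described first the differences were 1.72 for Sparc, -2.43 for Fbln1, -1.66 for Fbln2, -1.24 for Tgfbi, -0.58 for Fn1, 0.31 for Thbs1, 0.45 for Tnc and -0.28 for Efemp1. Among further matricellular genes they were 0.25 for Mfge8 (adjusted p = 0.0415) and -0.41 for Ccn2 (adjusted p = 0.000229). The Mfge8 call was lost with RLE size factors (0.215), library size only (0.086), DESeq2 (0.215), no filter (0.15) and a stricter filter (0.17). It was also lost without dKO MI-503 replicate 1 (0.16), dKO DMSO replicate 1 (0.19), WT MI-503 replicate 2 (0.20) or WT DMSO replicate 1 (0.19). Ltbp4, which stores latent TGF-beta, differed by -1.37 (adjusted p = 8.86e-05). The receptor genes differed by -0.81 for Itga3 (adjusted p = 2.13e-05), -0.79 for Sdc1 (adjusted p = 3.96e-06), -0.46 for Itgb1 (adjusted p = 0.000131) and -0.51 for Cd44 (adjusted p = 3.75e-05). The inhibitor genes differed by -0.50 for Timp2 (adjusted p = 1.64e-05) and 0.34 for Serpine2 (adjusted p = 0.00105). In the TGF-beta list the differences were -0.37 for Tgfbr2 (adjusted p = 0.000259) and -0.22 for Smurf1 (adjusted p = 0.0212). The Smurf1 call was lost without dKO MI-503 replicate 2 (-0.18), dKO DMSO replicate 2 (-0.20), WT MI-503 replicate 1 (-0.19) or WT DMSO replicate 2 (-0.17).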

How the results depend on the processing

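Over the fold changes of the 9 genes, no alternative reversed a direction; 652 values kept their call, 9 lost it and 4 gained it. Among further matricellular genes called in WT under MI-503, 11 became 7 with a stricter filter, which tests fewer genes. The number of the 9 genes called in dKO against WT in DMSO ran from 6 to 8 with a library left out and was 8 with the replicate block. Replicate numbers gave no sign of pairing (correlations of deviations -0.0886 to 0.0585), which cannot show that the replicates were unmatched. The block moved no count of calls by 1.5 times. With library size only, the median of all genes shifted by 0.23 in dKO against WT in DMSO, by 0.17 for MI-503 in WT and by -0.16 in the difference of effects. The share of calls that were higher was then 61.7% against 45.3% in dKO against WT in DMSO, and 37.3% against 52.9% in the difference. With only the groups compared, Spon2 gave no value in dKO against WT in DMSO, since it did not pass the filter, and the difference of effects uses all 4 groups, so that setting does not apply to it. Small values changed sign, and the cause was not tested. In dKO against WT in DMSO with library size only, Ltbp1 was 0.018 and Tgif1 0.11. For MI-503 in dKO, Ltbp4 and Mmp14 were -0.011 and -0.0047 with no filter, and -0.011 and -0.0045 with only the groups compared. With a library left out, they ran from -0.19 to 0.25 and from -0.018 to 0.055. In the difference of effects, Igfbp7 was -0.032 and Ltbp1 -0.073 with library size only, and Ltbp1 was -0.012 with no filter. Tgif1 there ran from -0.077 to 0.024 with a library left out. Smad4, in dKO against WT in MI-503, was 0.0043 with RLE size factors, 0.065 with library size only, 0.0044 with DESeq2, 0.0064 with a stricter filter and 0.0029 with only the groups compared. With a library left out it ran from -0.0057 to 0.0026. Depth limits Spon2 in DMSO, where a library had 5 to 27 counts, and Postn, with none.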
